A study of Canis lupus familiaris with 58 samples.

Results

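The 20 tumours described here came from lymph nodes of dogs with DLBCL, diffuse large B-cell lymphoma, a fast-growing B-cell cancer, and were picked from the 2 ends of a ranking by DLA-DOA. DLA-DOA encodes the alpha chain of the DO dimer, one part of the canine major histocompatibility complex (MHC) class II system. The 32 nodes with this diagnosis were ranked by the log2 level of the DLA-DOA probe set that was brightest on average over all 58 arrays of the series. The 10 lowest nodes are called low nodes, the 10 highest are called high nodes, and the 12 between them are called middle nodes. Each node came from a different pet dog before treatment, and 1 array was made per dog. The series also holds 19 fine needle aspirates, with no diagnosis in the labels, and 7 nodes with marginal zone lymphoma (MZL). The aspirates took no part in the ranking and served to repeat the comparison.

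MHC class II molecules carry peptides from ingested proteins to the surface of B cells, macrophages and dendritic cells, where CD4+ T cells read them. The DR and DQ chains form the peptide-binding molecules, the CD74 invariant chain guides them to the endosome, DM loads the peptide, and DO restrains DM. The genes are switched on together by the CIITA coactivator with RFX and NF-Y factors, and loss of class II on DLBCL cells has been linked in people to poor outcome. Gene roles below are those known from human and mouse.

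DLA-DOA itself ran from 10.90 through a median of 11.25 to 11.77 in low nodes and from 12.34 through 12.50 to 12.92 in high nodes, on the log2 scale. The means were 11.26 ± 0.30 in low nodes and 12.53 ± 0.18 in high nodes (SD, n = 10 each). These values chose the nodes, so they were not tested. Just inside and outside the limits stood nodes at 11.77 and 11.80 at the low end, and at 12.34 and 12.27 at the high end. The low limit therefore fell where the ranking had almost no gap. A second DLA-DOA probe set averaged 9.63 in low nodes and 10.93 in high nodes, and tracked the first with r = 0.98 over the 32 nodes. DLA-DOA ran from 10.48 to 12.87 in aspirates and from 10.98 to 12.63 in MZL nodes, so both held tumours as low as the low nodes.

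All array medians lay between 7.08 and 7.20, and each array correlated with the others at a mean of 0.95 or higher among the 32 nodes. MS4A1 (CD20, a surface protein of mature B cells) stood between 11.72 and 13.79 in 31 of the 32 nodes. The remaining one, the high node of dog 22, had 6.96, while its CD79A, part of the B-cell receptor, was 8.61 against 6.71 to 10.86 in the other nodes. The 3′ minus 5′ difference of GAPDH and ACTB control probe sets, which grows as RNA is degraded, was between -0.08 and 0.55 in 9 low nodes and between 0.07 and 0.48 in the high nodes. It was 2.37 in the low node of dog 41, so results that rest on that node are also given without it. In bulk tissue, fewer cells of a type and less RNA per cell cannot be told apart.

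Other class II genes were lower in low nodes as a group, although none passed the test by itself. All 8 measured genes besides DLA-DOA had lower means in low nodes, with a median difference of -0.67 on the log2 scale. Over all 15114 genes tested the median was -0.01, and 54.3% of genes were lower in low nodes. At an unadjusted p under 0.05, 7 of these 8 genes were lower, where 3.45% of all genes were lower and 4.33% were higher at that level. After Benjamini-Hochberg adjustment of limma p-values over all genes, 0 of the 8 were called, and 0.00662% of all genes were. Nodes were selected on a gene of the same system, so these counts describe how far its other genes went along with it.

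**Figure D1:**
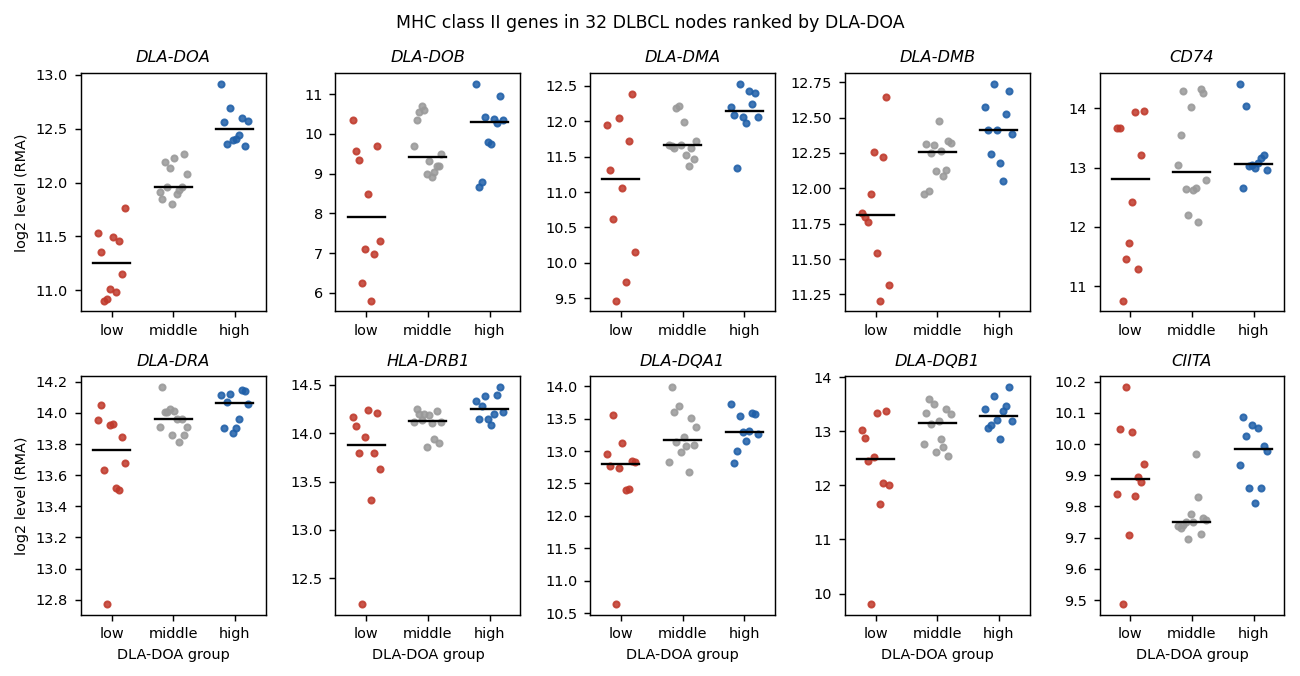
Log2 levels (y axis) of DLA-DOA, the 8 other measured MHC class II genes and CIITA in low, middle and high nodes (x axis). Each point is 1 of 32 nodes and each bar is the group median. The low nodes are spread far downwards for most class II genes, and 1 low node stands below 12.8 for DLA-DRA.

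DLA-DOB, the beta chain that pairs with DOA, had the widest difference of the list. It ran from 5.81 through 7.90 to 10.36 in low nodes and from 8.67 through 10.31 to 11.25 in high nodes. The groups overlapped, but 6 of 10 low nodes lay under every high node. The difference was -1.97 ± 0.54 (SE, n = 10 each), a level 0.254 times that of high nodes (limma adjusted p = 0.308). The DM genes, whose product loads peptide, differed in the same direction. DLA-DMA ran from 9.47 through 11.19 to 12.39 in low nodes and from 11.34 through 12.15 to 12.53 in high nodes, a difference of -1.09 ± 0.32 (adjusted p = 0.362). DLA-DMB ran from 11.21 through 11.81 to 12.65 in low nodes and from 12.05 through 12.41 to 12.74 in high nodes, a difference of -0.57 ± 0.15 (adjusted p = 0.303). The low nodes held the lowest values of both DM genes, and 7 of 10 lay under every high node for DLA-DMB. Dimmer probe sets gave differences of -0.88 for DLA-DMA and of -0.76 and -0.79 for DLA-DMB.

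The antigen-presenting chains also had lower means in low nodes. DLA-DQB1 ran from 9.81 through 12.49 to 13.38 in low nodes and from 12.85 through 13.29 to 13.81 in high nodes, a difference of -1.00 ± 0.32 (limma adjusted p = 0.452). DLA-DQA1 averaged 12.63 ± 0.77 in low nodes and 13.33 ± 0.29 in high nodes (SD), a difference of -0.70 (adjusted p = 0.511). The DR beta gene, named HLA-DRB1 on the array, averaged 13.74 ± 0.60 in low nodes and 14.27 ± 0.13 in high nodes, a difference of -0.52 (adjusted p = 0.519). DLA-DRA averaged 13.68 ± 0.37 in low nodes and 14.03 ± 0.11 in high nodes, a difference of -0.35 (adjusted p = 0.483). Every low node lay under the median of the high nodes for DLA-DRA and HLA-DRB1. The spread within low nodes was larger than within high nodes for each of these 4 genes. Dimmer probe sets gave wider differences, -0.94 ± 0.38 for DLA-DQA1 and -0.63 ± 0.19 for DLA-DRA (SE).

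CD74, the invariant chain, behaved less evenly than the others. It ran from 10.76 through 12.81 to 13.95 in low nodes and from 12.65 through 13.06 to 14.40 in high nodes, a difference of -0.65 ± 0.40 (limma adjusted p = 0.733). In CD74, 5 low nodes lay under every high node, and the other 5 lay within the range of the high nodes.

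The low nodes were not all low in class II. The mean level of the 8 genes ran from 10.57 through 12.01 to 12.78 in low nodes, with a median of 12.63 in middle nodes, and from 12.47 through 12.83 to 13.25 in high nodes. In all, 7 of 10 low nodes fell below every high node. The other 3, from dogs 48, 2 and 10, had means of 12.78, 12.73 and 12.51 and fell within the range of the high nodes. At the other extreme, dog 17 had 10.57 and held the lowest level of DLA-DRA, HLA-DRB1, DLA-DQA1 and DLA-DQB1 of all 32 nodes. Without dog 17 the median difference of the list was -0.55. A ranking by the mean of the other class II genes in place of DLA-DOA kept 7 of the 10 low and 6 of the 10 high nodes, and 1 node changed ends.

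The list on class II regulation holds repressors beside activators, and of its 18 measured genes 8 were lower and 10 higher in low nodes, with a median difference of 0.02. At an unadjusted p under 0.05, 2 were lower and 3 higher, where 3.45% of all genes were lower and 4.33% higher. Among its repressors and deacetylases, PRDM1, EZH2, HDAC1, HDAC2 and HDAC3 had differences from 0.004 to 0.38. The smallest was that of PRDM1, 0.004 ± 0.11 (limma adjusted p = 0.995), and its sign turned in some alternative runs. The others of this set were named after their values were seen. NFYA and NFYB, subunits of the activator NF-Y, had differences of 0.29 and 0.32, while RFX5, IRF1 and CIITA had lower means in low nodes. Not every lower or higher member is named here, so the named ones do not stand for repressors or activators as a set. None of the 18 was called. CIITA, the coactivator that class II transcription requires, averaged 9.89 ± 0.19 in low nodes and 9.97 ± 0.10 in high nodes, a difference of -0.08 ± 0.07 (limma adjusted p = 0.816). Its 2 probe sets disagreed in size, since the dimmer one gave a difference of -0.65 ± 0.22. RFX5, which binds the promoters of class II genes, averaged 10.66 ± 0.37 in low nodes and 11.11 ± 0.35 in high nodes, a difference of -0.45 (adjusted p = 0.486). IRF1, which carries the interferon gamma signal to CIITA, was under the high nodes' median in all 10 low nodes. It averaged 9.67 ± 0.26 in low nodes and 10.15 ± 0.32 in high nodes, a difference of -0.48 (adjusted p = 0.303). In the list on peptide supply, 9 of 12 genes were lower in low nodes, beside 54.3% of all genes. Its genes of smallest p were the lysosomal protease CTSH, with a difference of -0.52 (adjusted p = 0.449), and the lysosomal thiol reductase IFI30, with a difference of -0.78 (adjusted p = 0.587).

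Genes beside the class II genes on chromosome 12 were looked at by their order in the RefSeq annotation. Between BTNL2 and TAPBP, 17 measured genes are not class II genes. Of these, 15 were lower in low nodes, with a median difference of -0.15, and 5 had an unadjusted p under 0.05, all of them lower. Over all genes 54.3% were lower, and 3.45% were lower at that level. TAP1, PSMB8, RING1, RPS18 and B3GALT4 were those 5. Of the neighbours, TAP1, TAP2, PSMB8, PSMB9 and TAPBP also belong to the class I list described next, so these counts are not separate. BRD2, which sits next to DLA-DOA, averaged 11.66 in low nodes and 11.71 in high nodes, a difference of -0.05 ± 0.11 (limma adjusted p = 0.934).

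MHC class I presentation shows peptides from inside the cell to CD8+ T cells. Of its 17 measured genes 15 were lower in low nodes, with a median difference of -0.28. At an unadjusted p under 0.05, 4 genes were lower. Over all genes 54.3% were lower, and 3.45% were lower at that level. With 1 dog left out, the list's number of genes at that level ran from 3 without dog 41 or 22 to 7 without dog 48. Without dog 41, 14 of 17 were lower, with a median difference of -0.21. TAP1, a subunit of the peptide transporter, ran from 11.37 through 11.97 to 12.29 in low nodes and from 11.95 through 12.39 to 12.75 in high nodes. All 10 low nodes were under the median of the high nodes, and the difference was -0.52 ± 0.13 (limma adjusted p = 0.303). PSMB8, a catalytic subunit of the immunoproteasome, averaged 12.00 ± 0.33 in low nodes and 12.39 ± 0.18 in high nodes, a difference of -0.39 (adjusted p = 0.386). B2M, the light chain of class I molecules, averaged 14.29 ± 0.14 in low nodes and 14.38 ± 0.10 in high nodes, a difference of -0.10 (adjusted p = 0.734).

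Interferon-induced genes had lower means in low nodes for 29 of 30 measured members, with a median difference of -0.48 and 8 genes at an unadjusted p under 0.05. Over all genes 54.3% were lower, and 3.45% were lower at that level. None of the list was called, and 0.00662% of all genes were. The count of 8 moved with single dogs: it was 3 without dog 17, 41, 2 or 55, 4 without dog 53, 5 without dog 14, 18, 22 or 8, and 13 without dog 48. It was 2 with 8 or with 16 nodes from each end. The transcription factor STAT2 averaged 10.20 ± 0.12 in low nodes and 10.35 ± 0.09 in high nodes, a difference of -0.15 (limma adjusted p = 0.511). MX1, an antiviral GTPase named here after its values were seen, averaged 11.47 ± 2.31 in low nodes and 12.97 ± 0.62 in high nodes, a difference of -1.50 (adjusted p = 0.633). The list was uneven across dogs. Its mean level was 8.28, 8.42 and 8.49 in the low nodes of dogs 2, 17 and 41. In the other 7 low nodes it was between 9.48 and 10.72, and in the high nodes between 9.08 and 10.45. Without dog 41, the node with the large 3′ minus 5′ difference, the median difference of the list was -0.35.

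Proliferation genes had higher means in low nodes in every one of the 34 measured members, with a median difference of 0.45, or 1.37-fold. Over all genes 54.3% had a lower mean in low nodes. At an unadjusted p under 0.05, 21 of the 34 were higher, where 4.33% of all genes were, and 0 were called. The size depended on ranking by DLA-DOA: with nodes ranked by the mean of the other class II genes the median was 0.25 and 2 genes passed that level, and with nodes ranked by DLA-DRA the median was 0.20 and 1 gene did. With 16 nodes from each end it was 0.25, with 12 genes. TPX2, a spindle assembly factor, ran from 8.26 through 8.95 to 9.66 in low nodes and from 7.62 through 7.89 to 8.75 in high nodes. The difference was 0.89 ± 0.18, or 1.85-fold (limma adjusted p = 0.159), and 6 of 10 low nodes lay above every high node. KIF11, the motor that separates spindle poles, ran from 9.11 through 9.96 to 10.90 in low nodes and from 8.46 through 8.90 to 10.12 in high nodes, a difference of 0.99 ± 0.24 (adjusted p = 0.303). The mean level of the list ran from 10.07 through 10.67 to 11.53 in low nodes, with a median of 10.44 in middle nodes, and from 9.89 through 10.09 to 10.95 in high nodes. The ranges of low and high nodes overlapped.

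**Figure D2:**
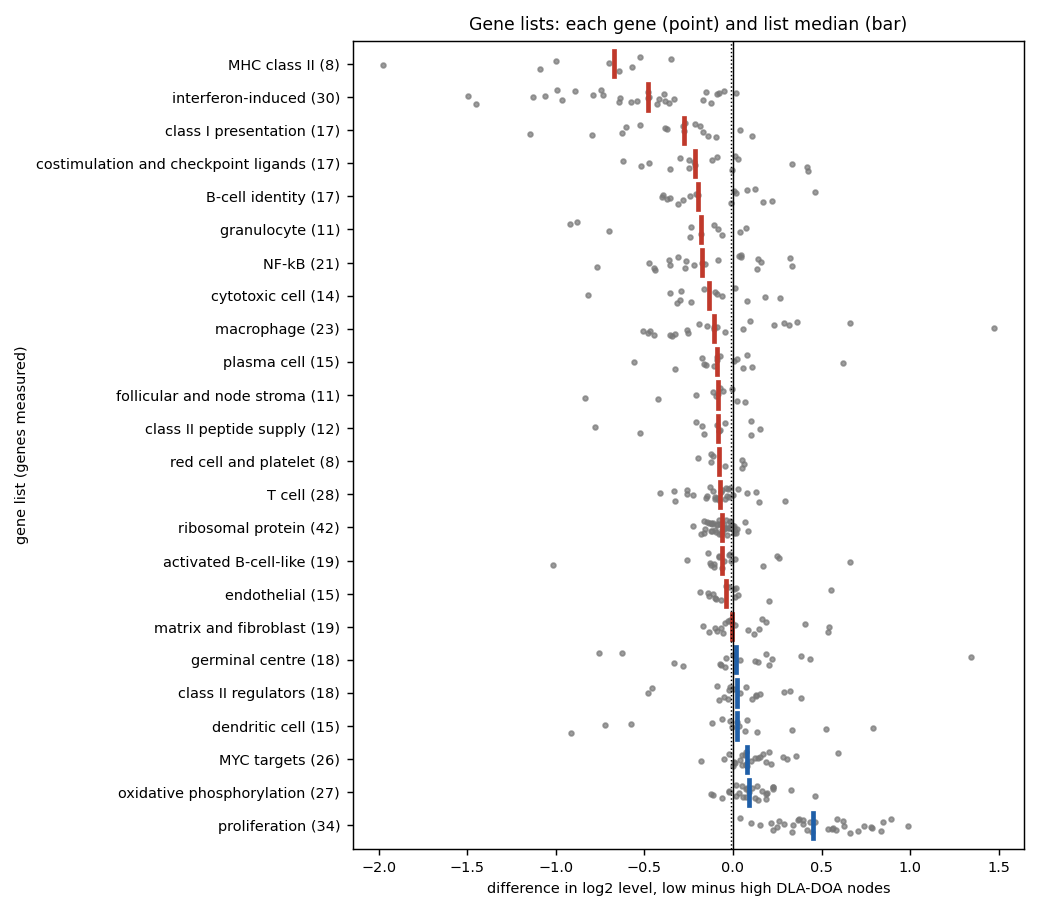
Difference in log2 level, low minus high nodes (x axis), for each measured gene (grey point) of 24 gene lists (y axis, with the number of genes measured). Bars mark list medians, red below 0 and blue above it, and the dotted line marks the median of all genes at -0.01. The MHC class II list has its median at -0.67 and the proliferation list at 0.45.

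Other growth-related lists were close to 0. Of 26 MYC target genes 22 were higher in low nodes, with a median difference of 0.08, and HSPD1, a mitochondrial chaperone, differed by 0.21 (limma adjusted p = 0.511). MYC itself averaged 11.48 ± 0.49 in low nodes and 11.66 ± 0.56 in high nodes, a difference of -0.18 (adjusted p = 0.885). Oxidative phosphorylation genes were higher in 22 of 27 and had a median of 0.09, with ATP5F1B, a catalytic subunit of ATP synthase, at 0.19 (adjusted p = 0.511). Ribosomal protein genes were lower in 34 of 42 and had a median of -0.06, with RPS23 at -0.11 (adjusted p = 0.483). The unadjusted threshold was passed by 4 higher MYC targets, 3 higher oxidative phosphorylation genes and 5 lower ribosomal protein genes. At that level 4.33% of all genes were higher and 3.45% lower, and 54.3% of all genes had a lower mean in low nodes.

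Across all 15114 genes the single call was CEP128, a protein of the mother centriole's appendages. It ran from 7.35 through 8.20 to 8.70 in low nodes and from 6.99 through 7.20 to 7.65 in high nodes. In 9 of 10 low nodes it stood above every high node, and the exception was the low node of dog 17. CEP128 rose by 0.87 ± 0.14 (SE), or 1.83-fold, in low nodes (limma adjusted p = 0.0412). Unadjusted p-values under 0.05 were held by 522 lower and 654 higher genes, 1176 in all. A share of 0.05 of the 15114 genes would be about 756, and an excess over chance was not tested. The call rested on the full set of nodes. It was kept in 5 of the 20 fits that left out 1 dog each, and lost without dog 14, 39, 19, 10, 41, 23, 56, 21, 26, 28, 37, 18, 55, 22 or 8, with adjusted p between 0.0517 and 0.126 in those fits. Without dog 41 the difference was 0.81 (adjusted p = 0.0681). With IGHV status in the model it was 0.86 (adjusted p = 0.223). The size also moved with other choices. It was 0.61 with the gene's probe sets averaged (adjusted p = 0.0399). With 8 nodes from each end it was 0.99 (adjusted p = 0.0743), and with 16 it was 0.55 (adjusted p = 0.617). With nodes ranked by the mean of the other class II genes it was 0.42 (adjusted p = 0.863), and by DLA-DRA 0.39 (adjusted p = 0.961).

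**Figure D3:**
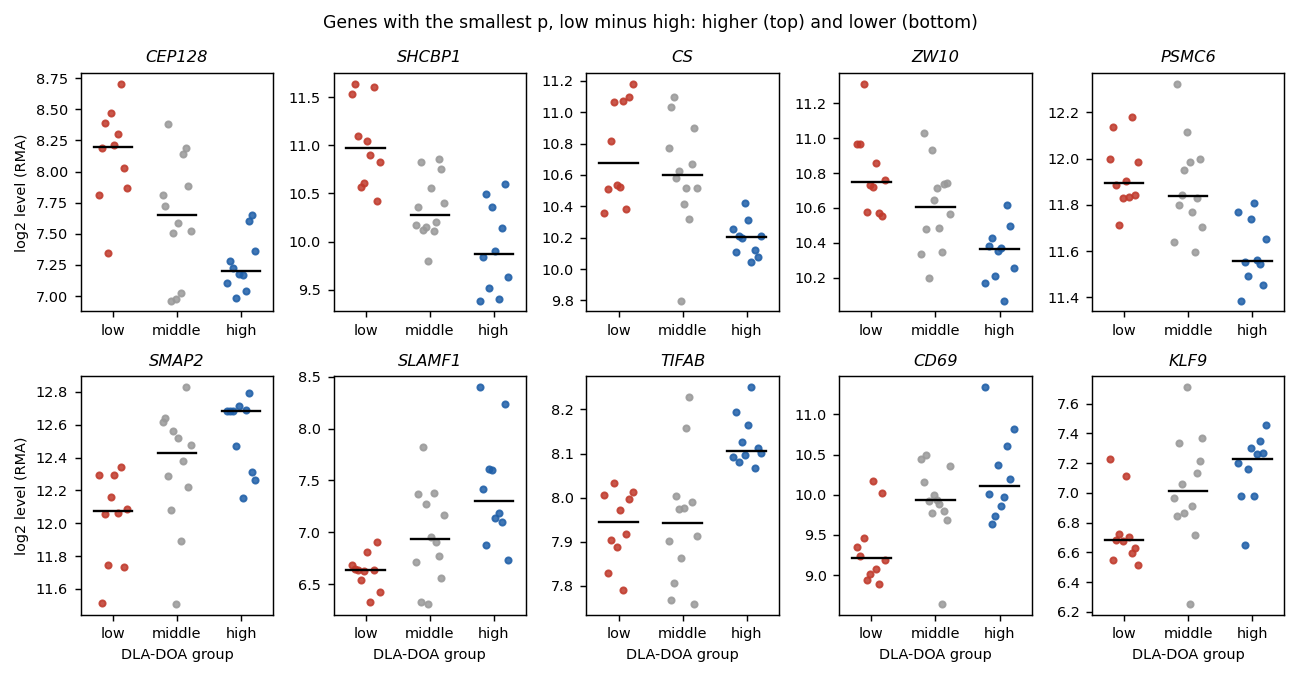
Log2 levels (y axis) of the 5 genes of smallest p higher in low nodes (top row) and the 5 lower in low nodes (bottom row), in low, middle and high nodes (x axis). Points are single nodes and bars are group medians. For CEP128, 9 of 10 low nodes stand above every high node, and all genes shown were picked by small p out of 15114.

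The next genes by p were not called. SHCBP1, which acts at the midbody in cell division, ran from 10.42 through 10.97 to 11.64 in low nodes and from 9.39 through 9.87 to 10.60 in high nodes. The difference was 1.10 ± 0.19, or 2.14-fold (limma adjusted p = 0.0917), and 8 of 10 low nodes were above every high node. CS, the citrate synthase of mitochondria, differed by 0.56 ± 0.11, ZW10, a kinetochore checkpoint protein, by 0.47 ± 0.09, and PSMC6, an ATPase of the proteasome, by 0.33 ± 0.07 (adjusted p = 0.159 for each). Their ranges overlapped, with 7 to 9 of the low nodes above every high node.

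The 5 genes of smallest p among those lower in low nodes were SMAP2, SLAMF1, TIFAB, CD69 and KLF9. SLAMF1, an adhesion receptor of activated lymphocytes, ran from 6.33 through 6.64 to 6.91 in low nodes and from 6.74 through 7.30 to 8.40 in high nodes, a difference of -0.80 ± 0.17 (limma adjusted p = 0.159). CD69, an early marker of lymphocyte activation, ran from 8.89 through 9.21 to 10.17 in low nodes and from 9.64 through 10.10 to 11.34 in high nodes, a difference of -0.92 ± 0.21 (adjusted p = 0.202). For each of these receptors 8 of 10 low nodes lay under every high node. SMAP2, which regulates vesicle traffic through ARF GTPases, differed by -0.52 ± 0.11 (adjusted p = 0.159), and the transcription factor KLF9 by -0.42 ± 0.10 (adjusted p = 0.303). TIFAB, which binds the signalling adaptor TIFA, ran from 7.79 through 7.94 to 8.03 in low nodes and from 8.07 through 8.11 to 8.25 in high nodes. Its difference was only -0.19 ± 0.04 (adjusted p = 0.176), and middle nodes spanned 7.76 to 8.23. TIFAB was picked by small p out of 15114 genes, and a rank-sum test over all genes called 0.

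By Pearson correlation over the 32 nodes, the genes most like DLA-DOA were CD69 (r = 0.65), DLA-DOB (0.65), SMAP2 (0.62), DLA-DRA (0.62), DLA-DMA (0.62), DLA-DQB1 (0.61), HLA-DRB1 (0.61), PKNOX2 (0.59), OGFRL1 (0.59) and SLAMF1 (0.58). Thus 5 of the 10 belong to the class II system. The likeness is a description, since the same arrays supply both values. In the 19 aspirates r was 0.61 for CD69, 0.65 for DLA-DOB and 0.77 for DLA-DMA, but -0.08 for PKNOX2.

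The lists on B-cell state had medians near that of all genes or slightly below it. Of 17 B-cell identity genes 10 were lower and 7 higher in low nodes, with a median difference of -0.20. CD40, the receptor by which T cells help B cells, averaged 10.41 ± 0.32 in low nodes and 10.77 ± 0.22 in high nodes, a difference of -0.36 (limma adjusted p = 0.47). CD37, a tetraspanin of mature B cells, differed by -0.38 (adjusted p = 0.641). PAX5, a factor that sets B-cell identity, differed by 0.005 (adjusted p = 0.991), and the sign turned when probe sets were averaged. CD79A differed by -0.24 (adjusted p = 0.911), a sign that turned with IGHV status in the model. MS4A1 differed by 0.46 ± 0.58 (adjusted p = 0.885), with the single node at 6.96 inside the high group.

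Germinal centre genes had a median difference of 0.02 (8 lower and 10 higher of 18), activated B-cell-like genes of -0.06 (14 and 5 of 19) and plasma cell genes of -0.09 (9 and 6 of 15). BCL6, the repressor that keeps cells in the germinal centre, averaged 8.68 ± 1.34 in low nodes and 8.97 ± 0.68 in high nodes (limma adjusted p = 0.913). PRDM1, which drives plasma cell formation, averaged 7.11 ± 0.27 in low nodes and 7.10 ± 0.23 in high nodes (adjusted p = 0.995). CCND2, a cyclin of cell cycle entry, was lower in low nodes by 1.02 on the log2 scale, with 10.75 ± 1.45 in low nodes and 11.77 ± 0.64 in high nodes (adjusted p = 0.622). HERPUD1, which serves the unfolded protein response, differed by 0.62 (adjusted p = 0.386), S1PR2, which confines B cells to the germinal centre, by 0.38 (adjusted p = 0.535), and the cell cycle factor MYBL2 by 0.44 (adjusted p = 0.591). The difference of S1PR2 turned sign when 16 nodes were taken from each end.

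In the other immune lists the share of genes with a lower mean is to be set beside the 54.3% of all genes that were lower. NF-kB genes were lower in 13 of 21, with a median of -0.18, and BCL2A1, a survival gene of that list, differed by -0.44 (limma adjusted p = 0.684). Costimulation and checkpoint ligands were lower in 12 of 17, with a median of -0.21, and LGALS9, a ligand of checkpoint receptors, differed by -0.62 (adjusted p = 0.589). CD80 and CD86, which give T cells their second signal, differed by -0.52 (adjusted p = 0.769) and -0.21 (adjusted p = 0.903), and the sign of CD86 turned with 8 nodes at each end.

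Markers of non-tumour cells were examined because some of these cells can carry class II. T-cell genes were lower in 22 of 28, with a median difference of -0.07, and the list's mean level lay between 7.17 and 7.62 in low nodes and between 7.17 and 7.72 in high nodes. CD3E, of the T-cell receptor complex, averaged 9.32 ± 0.22 in low nodes and 9.42 ± 0.21 in high nodes (limma adjusted p = 0.833). GATA3, a T-cell transcription factor, differed by -0.41 (adjusted p = 0.511). Macrophage genes were lower in 15 of 23, with a median of -0.11 and a mean level between 7.92 and 9.35 in low nodes and between 8.08 and 9.40 in high nodes. Dendritic cell genes were lower in 7 of 15, with a median of 0.02 and a mean level between 7.89 and 8.36 in low nodes and between 8.02 and 8.59 in high nodes. Over all genes 54.3% were lower, and the part of these cells in the class II difference was not tested.

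One macrophage gene stood apart from its list. GPNMB, a glycoprotein of macrophages and other lysosome-rich cells, ran from 7.93 through 9.08 to 10.73 in low nodes and from 7.21 through 7.65 to 9.32 in high nodes. The difference was 1.47 ± 0.31, or 2.78-fold (limma adjusted p = 0.159), and 4 of 10 low nodes were above every high node. CD68, a lysosomal protein of macrophages, differed by -0.51 (adjusted p = 0.672), and CD14, a receptor of monocytes, by -0.25 (adjusted p = 0.751). CD1C, which presents lipids on dendritic cells, differed by 0.79 (adjusted p = 0.728), and BATF3, a factor of cross-presenting dendritic cells, by -0.91 (adjusted p = 0.562).

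Granulocyte genes were lower in 9 of 11, with a median of -0.18, and S100A8 and S100A9, calcium-binding proteins of neutrophils, differed by -0.92 and -0.88 (limma adjusted p = 0.684 and 0.657). Cytotoxic cell genes were lower in 10 of 14, with a median of -0.13, and matrix and fibroblast genes in 10 of 19, with a median of -0.005. Node stroma genes were lower in 9 of 11, with a median of -0.08, and CXCL13, the chemokine that draws B cells into follicles, differed by -0.84 (adjusted p = 0.657). Endothelial genes had a median of -0.04 and red cell and platelet genes one of -0.08. Over all genes 54.3% were lower in low nodes.

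IGHV status, which records whether mutation of the antibody heavy chain gene was static or ongoing in the tumour, was unevenly held. It was static in 9 and ongoing in 1 of the 10 low nodes. In high nodes it was static in 4 and ongoing in 5 of the 9 with a known status, and 1 was ND, a code the labels leave unexplained. Static shares were 90% in low nodes, 45.5% in middle nodes (5 of 11) and 44.4% in high nodes. The odds ratio for static, low over high, was 9.75 with a 95% interval of 0.749 to 587 (Fisher's exact test, two-sided p = 0.0573). The difference did not pass 0.05, and the interval was wide. The exact p was 0.0294 without dog 2 and 0.0430 without dog 28, 18, 55 or 22, so the side of the threshold depended on single dogs. Among all 32 nodes, DLA-DOA had a median of 11.79 in the 18 static nodes and 12.25 in the 12 ongoing nodes.

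The list differences were also taken with IGHV status in the model and in static nodes only. Only 1 low node was ongoing, so group and status could hardly be separated, and the node with status ND was left out. With IGHV status as a covariate, the median difference was -0.58 for class II genes, and 4 of 8 had an unadjusted p under 0.05. Without the covariate, in all 20 nodes, 7 did. With the covariate the median difference was 0.62 for proliferation genes, with 25 of 34 at that level, and -0.73 for interferon-induced genes, with 14 of 30. Among static nodes only, 9 low against 4 high, it was -0.59 for class II genes, with 3 of 8 at that level, 0.71 for proliferation genes, with 23 of 34, and -0.41 for interferon-induced genes, with 4 of 30. No gene was called in either fit, while 1256 genes with the covariate and 978 in static nodes had an unadjusted p under 0.05.

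Outcome was given as progression-free survival (PFS) and overall survival (OS) times, with no unit in the labels. Dogs whose indicator was 1 were counted as having the event. Among the 10 dogs with low nodes 9 had a PFS event, and the Kaplan-Meier median PFS was 125. Among the 9 dogs with high nodes and a time 8 had an event, and the median was 174. No dog with a low node passed a PFS time of 219, while the longest among dogs with high nodes was 476. The hazard ratio, low over high, was 2.31 with a 95% interval of 0.757 to 7.05 (exact permutation score test, two-sided p = 0.154). Dogs with middle nodes had the longest median PFS, at 288, so the times did not follow the order of DLA-DOA.

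For OS, 9 of 10 dogs with low nodes and 7 of 9 with high nodes had an event, and the median OS was 192 with low nodes, 569 with middle nodes and 259 with high nodes. The longest OS was 252 with low nodes and 579 with high nodes. The hazard ratio, low over high, was 3.00 with a 95% interval of 0.884 to 10.2 (exact permutation score test, two-sided p = 0.0773). Neither outcome passed 0.05. Leaving out 1 dog moved the OS test past it without dog 53 or 21 (hazard ratio 4.22, exact p = 0.0341) or dog 26 (hazard ratio 4.01, exact p = 0.0431), 3 dogs with high nodes and early deaths. With 16 nodes from each end the OS hazard ratio was 1.60 (permutation p = 0.273) and the PFS hazard ratio 1.37 (permutation p = 0.424). In both curves the early events were mixed, and the groups parted only at later times.

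**Figure D4:**
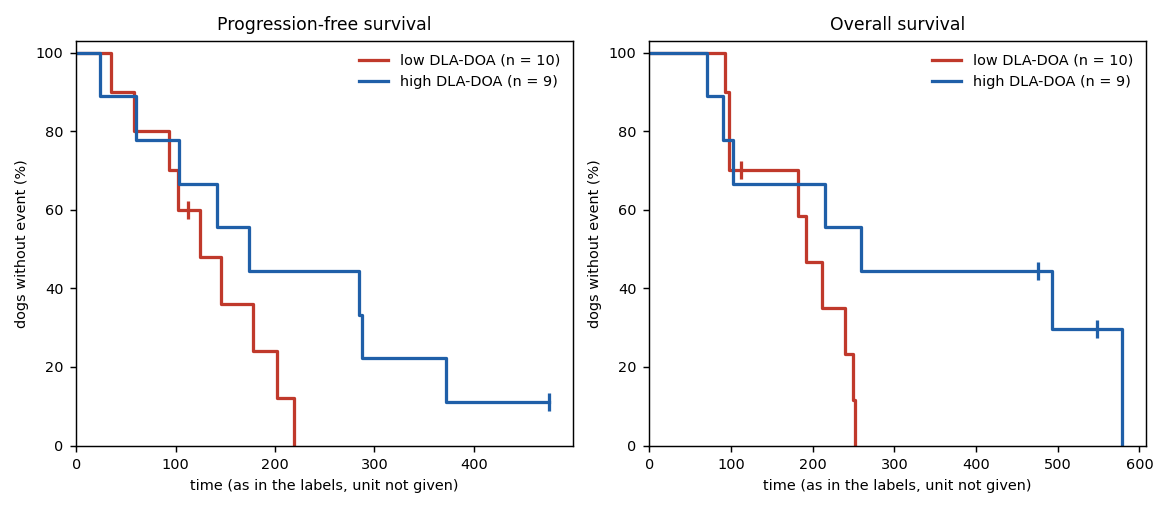
Kaplan-Meier curves of the share of dogs without an event (y axis, percent) against time as given in the labels (x axis, unit not given), for PFS (left) and OS (right). Red is low nodes (n = 10), blue is high nodes (n = 9), and ticks mark dogs whose follow-up ended without an event. The curves cross early, and the low-node curves end at 219 for PFS and 252 for OS.

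The 19 aspirates gave a separate set of dogs for the same question. Each gene was fitted on the DLA-DOA level with limma, and values are given per log2 unit of lower DLA-DOA. All 8 class II genes were lower with lower DLA-DOA, with a median of -0.53, and 6 were called, where 1.38% of all genes were called lower and 0.946% higher. The called genes were CD74, at -1.24 ± 0.21 (SE, adjusted p = 0.00597), DLA-DQB1, at -0.69 ± 0.13 (adjusted p = 0.00982), DLA-DMA, at -0.72 ± 0.14 (adjusted p = 0.00992), HLA-DRB1, at -0.27 ± 0.07 (adjusted p = 0.0416), DLA-DMB, at -0.37 ± 0.10 (adjusted p = 0.0462), and DLA-DOB, at -1.49 ± 0.39 (adjusted p = 0.0494). DLA-DRA, at -0.20 (adjusted p = 0.0990), and DLA-DQA1, at -0.22 (adjusted p = 0.590), were not. Most markers of B and T cells were also lower with lower DLA-DOA, but not evenly. MS4A1 stood at -0.012, PAX5 at 0.0087, CD40 at 0.059 and CD3E at -0.049, while CD79A stood at -1.02. B-cell identity genes were lower with lower DLA-DOA in 13 of 17, with 2 called, CD79B of the B-cell receptor at -1.63 (adjusted p = 0.00597) and CD37. T-cell genes were lower in 25 of 28, with a median of -0.23 and 0 called, and in 26 of 28 without the 2 aspirates of lowest DLA-DOA, with a median of -0.34. Over all genes 44.2% were lower with lower DLA-DOA, and the part of these cells in the class II result was not tested.

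CEP128 was called in aspirates too, at 0.59 ± 0.11 per unit of lower DLA-DOA (limma adjusted p = 0.0109). Among the other genes named in the nodes, CD37 fell by 0.58 (adjusted p = 0.00507) and CXCL13 fell by 2.20 (adjusted p = 0.0254) with lower DLA-DOA. CCND2 was called in the opposite direction to the nodes, at 0.51 ± 0.12 (adjusted p = 0.0324). Proliferation genes were higher with lower DLA-DOA in 33 of 34, with a median of 0.34, but 0 were called. Interferon-induced genes were lower in 26 of 30, with a median of -0.39, and 2 were called. SHCBP1, at 0.23 (adjusted p = 0.689), and TIFAB, at -0.01 (adjusted p = 0.940), were far from the threshold.

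None of the calls in aspirates was kept without 2 dogs. The aspirates of dogs 42 and 47 had DLA-DOA at 10.48 and 11.13, while the next lowest stood at 11.91. With all 19 aspirates 352 genes were called. Without those 2 aspirates 0 genes were called by limma and 838 had an unadjusted p under 0.05. The 8 class II genes were still all lower, with a median of -0.86, and 32 of 34 proliferation genes were still higher, with a median of 0.60. CEP128 was then at 0.32 (adjusted p = 0.926). Interferon-induced genes turned, with 24 of 30 higher and a median of 0.47, so their direction in aspirates depended on those 2 dogs. Macrophage genes, 12 of 23 lower with all aspirates, were higher in 20 of 23 without the 2 dogs.

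**Figure D5:**
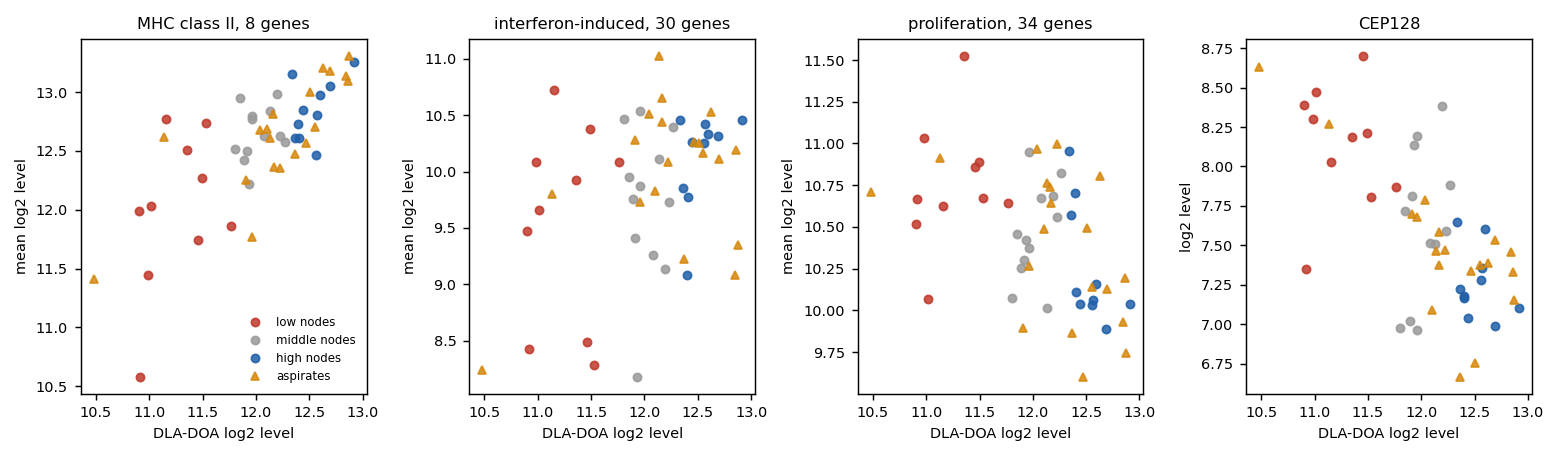
Mean log2 level of the class II, interferon-induced and proliferation lists and log2 level of CEP128 (y axes) against the log2 level of DLA-DOA (x axes). Circles are the 32 nodes, coloured by group, and triangles are the 19 aspirates. The aspirates at 10.48 and 11.13 stand alone at the low end, where CEP128 is 8.63 and 8.27.

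Outcome was also set against DLA-DOA in the aspirates. Per unit of lower DLA-DOA the hazard ratio was 0.843 for PFS, with a 95% interval of 0.371 to 1.91 (permutation test, two-sided p = 0.709), and 0.885 for OS, with an interval of 0.347 to 2.26 (p = 0.818). Without the 2 lowest aspirates it was 1.78 for PFS (p = 0.488) and 1.08 for OS (p = 0.935). A difference between aspirates and nodes in outcome was not tested.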

How the data were processed

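Total RNA from biopsies taken before treatment was amplified, labelled with biotin and hybridised to Affymetrix GeneChips, as the labels' protocols state. Values for 43035 probe sets were deposited by the authors on the log2 scale after RMA in Affymetrix Expression Console, per the submitters' processing notes. Versions and the genome build are not given in the sources used here. The number of arrays limits the precision.

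Probe sets were named from the platform annotation: 29254 had 1 symbol, 439 several, 13167 none and 175 were controls. A gene was read from its probe set with the highest mean over 58 arrays, which gave 15115 genes, and probe sets with several symbols named none. DLA-DOA was left out of the tests. Of 556 entries in 24 gene lists, 466 were measured, matched by symbol or RefSeq synonym, with DLA-DRB1 found as HLA-DRB1 and DLA-DPA1 and DLA-DPB1 not matched. The members and the lists were chosen with earlier results of these data known, among them the relation of IGHV status to class II and proliferation genes, so these are not independent support.

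Low and high nodes were compared with limma 3.58.1 in R 4.3.3 (lmFit, default eBayes, two-sided, Benjamini-Hochberg adjustment over all genes, threshold 0.05). The same test, with the DLA-DOA level as a continuous term, was run in aspirates. IGHV status was compared by Fisher's exact test. Hazard ratios came from survival 3.8.3, with p from a score test over every assignment of dogs in nodes. In aspirates, and in nodes for 16 from each end and per unit of lower DLA-DOA, 100000 drawn assignments were used. An indicator of 0 was read as censoring: for PFS it occurred in 8 dogs, each with the same time for both outcomes. The code was tested on simulated data. Figures were drawn with matplotlib 3.10.9.

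Genes were named by rule: those called, filled to 5 by smallest p in each direction, all class II genes, the 2 of smallest p in each other list, and 16 preset genes, of which IRF4 and MKI67 had no probe set by name. MX1, CD79B, the class II regulators outside this rule and the neighbours of the class II genes were named after their values were seen. Alternatives were other numbers of nodes, other rankings, other summaries of probe sets, other tests, covariates and leaving out each dog.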

Additional observations from a re-analysis of the deposited data

Results flagged for a closer look

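Of 152 groups of 10 nodes examined, 19 held a node whose gap to the nearest other was large for its group, and chance flags about 1 in 20. In low nodes, dog 17 was lowest for DLA-DRA at 12.77, HLA-DRB1 at 12.24, DLA-DQA1 at 10.65 and DLA-DQB1 at 9.81, where the next low nodes were at 13.50, 13.31, 12.40 and 11.66. The low node of dog 41 had a 3′ minus 5′ difference of 2.37, with the next at 0.55. In low nodes, dog 39 was lowest for STAT2 at 9.94 and CD3E at 8.82, and dog 14 was lowest for CD37 at 11.16. Dog 2 was highest for GZMK, a granzyme of cytotoxic cells, at 10.53. Dog 19 was highest for the matrix gene POSTN at 6.08 and the endothelial receptor KDR at 7.68.

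In high nodes, dog 22 was lowest for MS4A1 at 6.96, with the next at 11.72, while 16 other B-cell identity genes of that node ranked from 3 to 24 of 32, counted from the lowest. Dog 21 was lowest for DLA-DMA at 11.34. Dog 53 was lowest for CCND2 at 10.03 and highest for the red cell factor KLF1 at 7.51. Dog 18 was highest for GPNMB at 9.32 and lowest for HSPD1 at 13.07. Dog 26 was lowest for LGALS9 at 9.86, and dog 28 was highest for the endothelial gene ENG at 6.18.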

How the results depend on the processing

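The median differences of the class II, interferon-induced, class I and proliferation lists kept their direction in every alternative run, which were added after seeing the data; the class II list was not taken under a ranking by its own mean. Their size did not always hold: ranked by DLA-DRA, the proliferation median was 0.20, against 0.45, and the class I median -0.13, against -0.28, while with 16 nodes from each end the class II and interferon medians were -0.45 and -0.32. The count of called genes did not hold. It was 0 with 8 or 16 nodes from each end, with the DLA-DOA level over 32 nodes, with nodes ranked by the mean of DLA-DOA probe sets or by DLA-DRA, over every probe set (3117 at an unadjusted p under 0.05), with a rank-sum test (1058), with IGHV status as a covariate, without the node of dog 41 and in static nodes only. In the limma fits among these, other than that of every probe set, 770 to 1256 genes had an unadjusted p under 0.05. It was 2 with probe sets averaged (CEP128 and ZW10), and it ran from 0 to 3 when 1 dog was left out. A fit of 3 groups called SHCBP1 alone and a ranking by the other class II genes called CASP12 alone. In aspirates, 145 genes were called with IGHV status as a covariate, 0 with 6 against 6 (1203 at an unadjusted p under 0.05) and 0 without the 2 lowest (838).

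The difference in static share was 53.3 points with 16 nodes from each end (Fisher's exact p = 0.00778), 60 points with nodes ranked by the other class II genes (p = 0.0108), and 40 to 55.6 points when 1 dog was left out. That ranking gave a hazard ratio of 4.46 for PFS (exact p = 0.0186) and 4.24 for OS (exact p = 0.0388). For OS it was 6.48 with 8 nodes from each end (exact p = 0.0169) and 2.51 to 4.22 when 1 dog was left out. For PFS it was 1.90 to 2.99 when 1 dog was left out. With 16 nodes from each end the ratios were smaller, 1.60 for OS (permutation p = 0.273) and 1.37 for PFS (permutation p = 0.424). Per unit of lower DLA-DOA over 30 dogs with times they were 1.89 for OS (permutation p = 0.117) and 2.03 for PFS (permutation p = 0.0892).

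Of 444 alternatives for 74 named genes, 13 turned the sign, all in genes not called in the nodes: S1PR2 (-0.021), PAX5 (-0.0061), PRDM1 (-0.066), CD3E (0.0049) and MYC (0.073) with 16 nodes from each end, PRDM1 (-0.039) and CD86 (0.11) with 8, CD79A (0.020) and BCL6 (0.071) with the IGHV covariate, PAX5 (-0.089) with probe sets averaged, and FCER2 (0.021), CD79A (0.13) and PRDM1 (-0.064) in static nodes. The causes were not tested. No paired analysis was possible because each dog gave 1 sample.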
